A study of Sus scrofa with 18 samples.

Results

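The epidermal lipid barrier genes ALOX12B, ALOXE3, ABCA12, CERS3, ELOVL4, UGCG, PNPLA1 and AADACL2 were measured in 18 RNA libraries of pig tissue. They are 8 of the 27339 genes in the count table and were chosen by symbol as genes of skin lipid metabolism. Earlier results of these data were known at that choice, among them the high level of 1 normal tissue library (WT scrotum replicate 2 below). All 8 were in the table and all 8 passed the filter on low counts. DIK pigs are double knock-in animals that carry elements of the Tet-on system, in which doxycycline switches a gene on, and of the phiC31 integrase system, in which a recombinase rearranges DNA between its recognition sites. Doxycycline was given at an age of 7 months to 3 DIK founders and also to wild-type (WT) pigs of the same age. Tumours appeared in 1 of the founders, and 8 months after induction its tumours and WT normal tissue were taken. The groups were DIK nose, DIK mouth, DIK scrotum, WT nose, WT mouth and WT scrotum, with 3 libraries each. All 9 DIK libraries therefore came from 1 animal. The sources used here do not give the number of WT animals, whether the 3 libraries of a group are separate tumours or pieces of 1, the promoters, or the gene switched on. The p-values below measure only the spread between these libraries, which may be technical.

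The outer skin is kept watertight by layers of ceramides, cholesterol and free fatty acids between its dead, flattened cells. Keratinocytes, the cells of the epidermis, make ceramides with very long fatty acids, attach glucose to them, load them into lamellar bodies and secrete them. Some of these ceramides carry an extra linoleic acid (acylceramides), and lipoxygenases oxidise that linoleate before the ceramide is bound to the protein shell of the cell, the cornified envelope. In people, inherited loss of several of these genes causes congenital ichthyosis, a scaling disorder of the skin.

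Total counts ran from 418665 in WT nose replicate 1 to 5041470 in WT nose replicate 3. Values are CPM, read counts divided by the TMM-scaled library size, and 3 counts corresponded to 0.483 to 5.76 CPM. Floors and counting intervals given here cover counting error only. Positional marker genes went against the mouth and scrotum labels. The sum of 15 posterior HOX genes (paralogue groups 9 to 13), which mark the rear of the body, was 42.2 to 70.8 CPM in the libraries labelled WT mouth and 3.36 to 6.52 CPM in those labelled WT scrotum. It was 11.7 to 20.4 CPM in DIK mouth and 0.625 to 4.19 CPM in DIK scrotum. The groups were kept as labelled, and every comparison that names mouth or scrotum refers to these labels. WT scrotum replicate 2 stood apart from the other WT libraries: 9 keratinocyte markers summed to 22270 CPM there and to 82.0 and 1223 CPM in the other WT scrotum libraries. Results of tests at the scrotum label are given with and without it.

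The 8 genes together were 470.7 to 501.1 CPM in DIK nose, 218.0 to 295.4 CPM in DIK mouth and 116.9 to 160.4 CPM in DIK scrotum. In WT the sum was 7.68 to 14.7 CPM in nose and 19.1 to 23.0 CPM in mouth. In WT scrotum it was 11.3 CPM in replicate 1, 291.2 CPM in replicate 2 and 12.04 CPM in replicate 3. WT scrotum replicate 2 therefore held more of these transcripts than 5 of the 9 tumour libraries, while the other 8 WT libraries were all below every tumour library. The keratinocyte markers moved in the same direction, at 39211 to 43440 CPM in DIK nose, 61547 to 67681 CPM in DIK mouth and 57485 to 82709 CPM in DIK scrotum. They were 622 to 1455 CPM in WT nose and 118 to 1467 CPM in WT mouth, and none of the 9 was at 0 in any tumour group. Skeletal muscle markers were 79392 to 115304 CPM in WT nose, 1193 to 3615 CPM in WT mouth, 97191 (replicate 2) to 231909 CPM in WT scrotum and at most 925 CPM in any tumour library. Smooth muscle markers were 41417 to 73485 CPM in WT mouth and at most 337 CPM in any tumour library. Fibroblast markers were 4934 to 32136 CPM in WT and 799 to 3788 CPM in tumours, and adipocyte markers 32.6 to 415.3 CPM in WT and 0 to 13.9 CPM in tumours. The part of tissue makeup in the results was not tested, and in bulk tissue fewer cells of a type and less RNA per cell cannot be told apart.

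**Figure D1:**
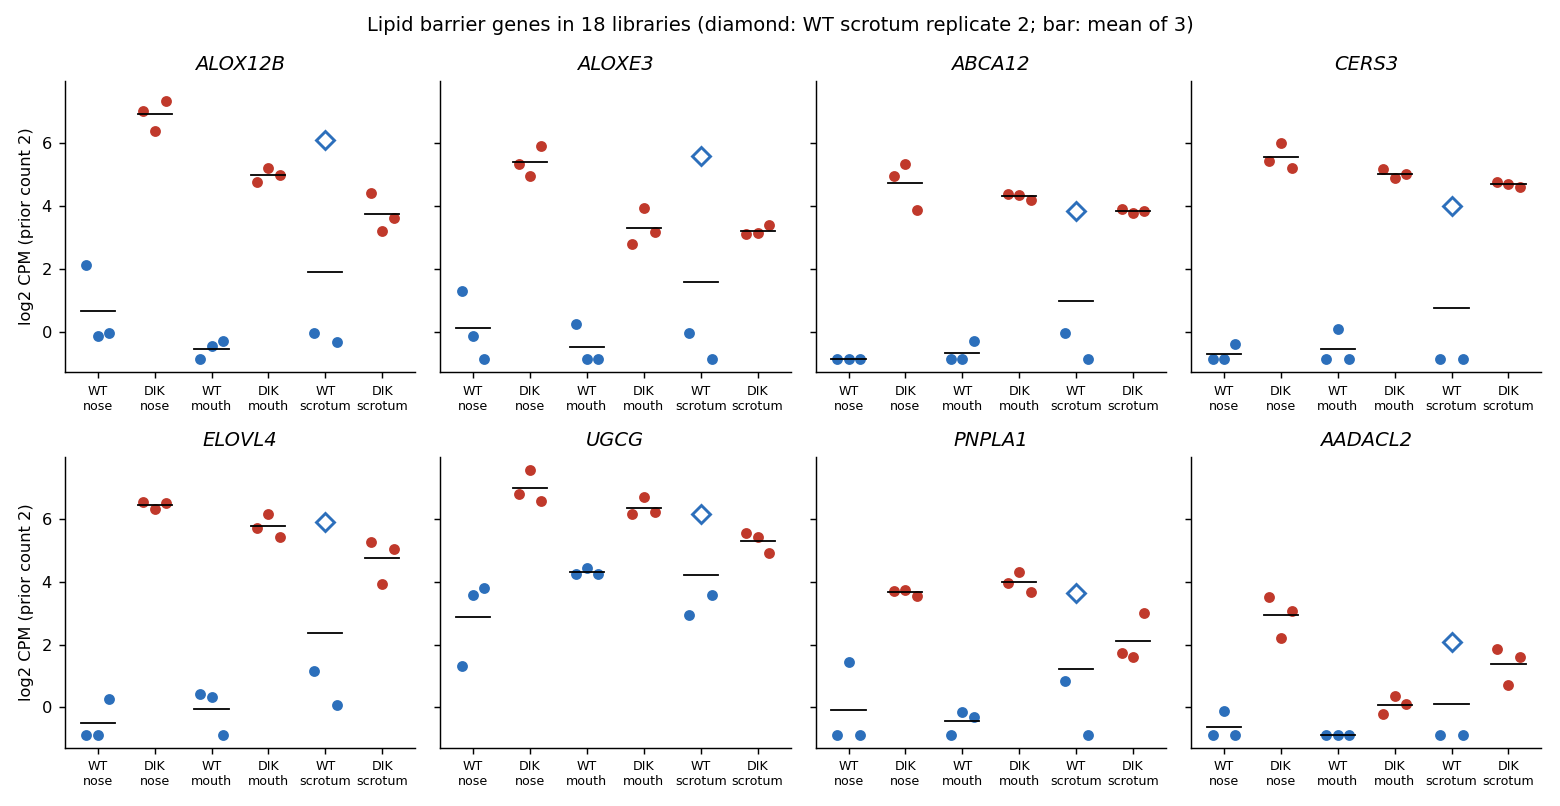
TMM-scaled log2 CPM (prior count 2) of each of the 8 genes, with 1 point per library and the 6 groups side by side. Bars are means of 3 libraries, and the WT scrotum bar includes replicate 2. The DIK points lie above the WT points at the nose and mouth labels, and WT scrotum replicate 2, drawn apart, lies within the range of the 9 tumour libraries for 7 genes and below it for CERS3.

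At the nose label all 8 genes were called higher in DIK than in WT, where called means an adjusted p under 0.05 in edgeR's quasi-likelihood test with Benjamini-Hochberg adjustment over 12895 tested genes. Of all tested genes, 21.9% were called higher there. At the mouth label 7 of the 8 were called higher, against 22.7% of all tested genes. All libraries of DIK lay above all of WT for 8 of 8 genes at both labels, against 29.2% of tested genes at nose and 29.0% at mouth. At scrotum this held for CERS3 alone, against 24.0% of tested genes. At the scrotum label none was called with all libraries, against 19.4% of tested genes called higher. There 1 gene had an unadjusted p under 0.05, DESeq2 called 0 and limma-voom with quality weights called 7. The shares of all tested genes at that cut and with those tools are not given here. Over the 14 alternatives run, 1676 to 3221 genes were called higher at scrotum, from 2507 in the main fit. Without WT scrotum replicate 2 all 8 were called higher, against 24.0% of 13334 tested genes, and all 8 had DIK libraries above both WT libraries, against 32.5%. The median log2 difference of the 8 genes was 7.31 at nose, 6.33 at mouth, 0.41 at scrotum and 5.40 at scrotum without that library. With genes at 0 counts in a group set to their bound, it was 6.71 at nose, 6.33 at mouth and 5.07 at scrotum without that library. Over all tested genes it was 0.03, -0.04, -0.09 and -0.01. The difference between labels was itself called smaller at scrotum for 4 of 8 genes against nose and 3 of 8 against mouth, where 4.46% and 8.10% of tested genes were called lower, and for 0 of 8 between mouth and nose (4.61% of tested genes); without WT scrotum replicate 2 no such difference was called for any of the 8.

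**Figure D2:**
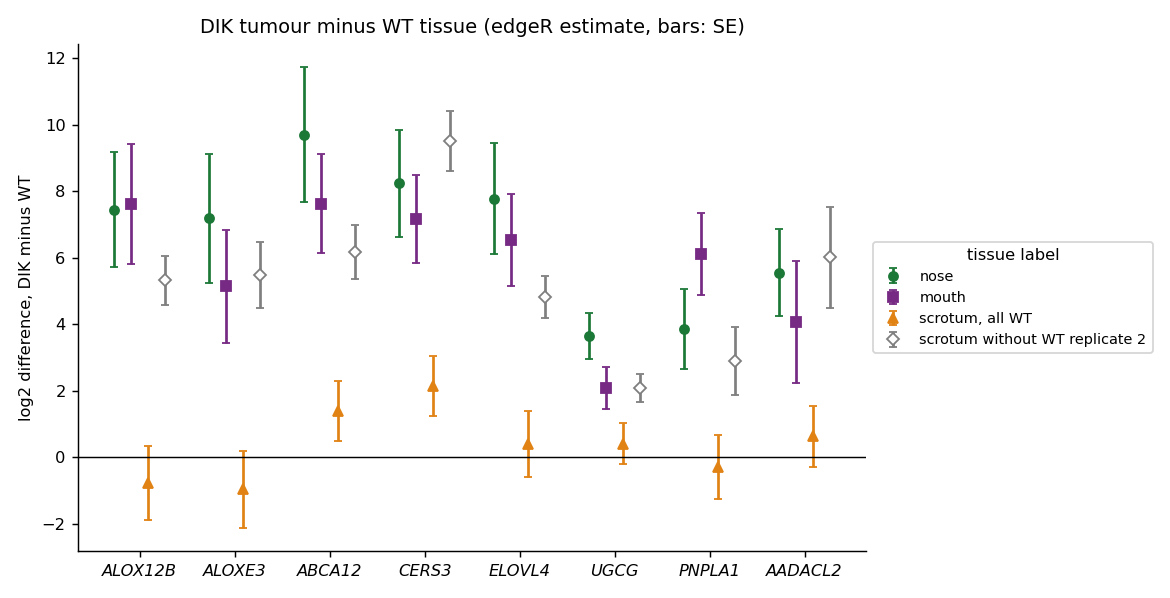
Log2 difference DIK minus WT with its standard error for each gene at the nose, mouth and scrotum labels, and at the scrotum label without WT scrotum replicate 2. The estimates at scrotum lie between -0.96 and 2.15 with all libraries and between 2.08 and 9.51 without that library. Points against 0 WT counts depend on the prior count: ABCA12 at nose, AADACL2 at mouth, and CERS3 and AADACL2 at scrotum without that library.

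ELOVL4 lengthens fatty acids to the very long chains used in acylceramides. Its level was 92.5, 78.4 and 91.2 CPM in replicates 1 to 3 of DIK nose, 52.2, 70.4 and 42.4 CPM in DIK mouth and 38.0, 14.7 and 32.5 CPM in DIK scrotum. In WT it was 0, 0 and 0.641 CPM in nose, 0.805, 0.697 and 0 CPM in mouth, and 1.68, 59.7 and 0.502 CPM in scrotum. Tumour and normal libraries did not overlap at nose or mouth, and at scrotum only WT replicate 2 lay above tumours. The log2 difference was 7.78 ± 1.66 (SE, n = 3 and 3, edgeR adjusted p = 0.00227) at nose and 6.54 ± 1.38 (edgeR adjusted p = 0.00173) at mouth. The 3 counts in all WT nose libraries gave a pooled ratio of 232 with an exact 95% counting interval of 79.0 to 1125. At scrotum the log2 difference was 0.41 ± 0.99 with all libraries and 4.82 ± 0.63 (edgeR adjusted p = 2.7e-06) without WT scrotum replicate 2. Without WT nose replicate 3, which held all of these counts, the estimate at nose was 11.29. It is then against 0 WT counts and depends on the prior count.

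CERS3, the ceramide synthase that joins these very long fatty acids to a sphingoid base, had the steadiest level among tumour sites. It was 42.5, 64.1 and 36.3 CPM in DIK nose, 36.1, 28.9 and 31.7 CPM in DIK mouth and 26.8, 25.7 and 23.8 CPM in DIK scrotum. The WT libraries had 0, 0 and 0.214 CPM in nose, 0, 0.523 and 0 CPM in mouth, and 0, 15.5 and 0 CPM in scrotum. All 9 tumour libraries lay above all 9 WT libraries, WT scrotum replicate 2 included, and CERS3 was the only one of the 8 genes of which this held. The share of all tested genes of which it held was not counted, so this is a description. The log2 difference was 8.23 ± 1.61 (edgeR adjusted p = 0.00117) at nose and 7.17 ± 1.32 (edgeR adjusted p = 0.000585) at mouth. Pooled ratios were 377 (95% counting interval 67.4 to 14921) against 1 WT count at nose and 168 (56.9 to 817) against 3 WT counts at mouth. At scrotum the difference was 2.15 ± 0.90 (edgeR adjusted p = 0.0668) with all libraries. Without WT scrotum replicate 2, WT had 0 counts and DIK was at least 54.8-fold higher against a floor of 3 counts over the group (edgeR adjusted p = 4.89e-08). Leaving out 1 WT library moved the estimate to 10.42 at nose (replicate 3) and to 9.82 at mouth (replicate 2). Each of these libraries held all WT counts of its group, so both estimates are against 0 counts and depend on the prior count.

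UGCG adds glucose to ceramide, the form in which ceramides enter lamellar bodies, and it is active in many tissues. It was the only one of the 8 genes above the floor in most WT libraries. DIK levels were 111.4, 188.2 and 93.9 CPM in nose, 70.2, 104.2 and 73.6 CPM in mouth and 46.4, 42.9 and 29.4 CPM in scrotum. WT levels were 1.92, 11.3 and 13.5 CPM in nose, 18.5, 21.3 and 18.4 CPM in mouth, and 7.13, 70.1 and 11.3 CPM in scrotum. Its differences were smaller than those of the barrier-specific genes, although the groups did not overlap at nose or mouth. They were 3.66 ± 0.70 on the log2 scale (edgeR adjusted p = 0.000735) at nose and 2.09 ± 0.63 (edgeR adjusted p = 0.0131) at mouth. At scrotum the log2 difference was 0.41 ± 0.62 with all libraries and 2.08 ± 0.41 (edgeR adjusted p = 0.000289) without WT scrotum replicate 2.

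ABCA12 is the transporter that loads glucosylceramide into lamellar bodies, and its loss causes harlequin ichthyosis. Its tumour levels were close to one another, at 30.8, 40.4 and 14.2 CPM in nose, 20.6, 19.9 and 17.9 CPM in mouth and 14.5, 13.2 and 13.8 CPM in scrotum. WT nose had 0 counts in all 3 libraries, WT mouth had 1 count, at 0.262 CPM in replicate 3, and WT scrotum had 0.42, 13.9 and 0 CPM. WT scrotum replicate 2 thus lay within the range of the DIK scrotum libraries. At nose DIK was at least 75.7-fold higher (edgeR adjusted p = 0.00245), and the fitted log2 difference of 9.70 depends on the prior count. At mouth the log2 difference was 7.62 ± 1.49 (edgeR adjusted p = 0.0013), and the pooled ratio against 1 WT count was 306 (95% counting interval 54.3 to 12137). The mouth estimate was 9.14 without WT mouth replicate 3, the library that held that count, and this value also depends on the prior count. At scrotum the difference was 1.40 ± 0.91 with all libraries and 6.16 ± 0.81 (edgeR adjusted p = 4.86e-06) without WT scrotum replicate 2.

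PNPLA1 transfers linoleic acid onto very long chain ceramides and so makes acylceramide. It was 12.6, 12.7 and 11.2 CPM in DIK nose, 14.9, 19.4 and 12.3 CPM in DIK mouth and 2.79, 2.50 and 7.50 CPM in DIK scrotum. WT levels were 0, 2.19 and 0 CPM in nose, 0, 0.349 and 0.262 CPM in mouth, and 1.26, 12.02 and 0 CPM in scrotum. DIK mouth and DIK nose overlapped, as they did for ABCA12 and UGCG. The log2 difference was 3.87 ± 1.21 (edgeR adjusted p = 0.0181) at nose and 6.11 ± 1.23 (edgeR adjusted p = 0.000961) at mouth, where the pooled ratio against 3 WT counts was 82.4 (95% counting interval 27.7 to 404). At nose all 6 WT counts were in replicate 2: the estimate was 8.50 without that library, and it was 2.79 (edgeR adjusted p = 0.11) without WT nose replicate 3. The value of 8.50 is against 0 WT counts and depends on the prior count. At scrotum the difference was -0.29 ± 0.96 with all libraries and 2.90 ± 1.01 (edgeR adjusted p = 0.0231) without WT scrotum replicate 2.

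ALOX12B, the lipoxygenase that first oxidises the linoleate of acylceramide, had the widest range among tumour sites after AADACL2. Its level was 129.9, 82.9 and 161.1 CPM in DIK nose, 26.6, 36.9 and 31.2 CPM in DIK mouth and 20.7, 8.58 and 11.9 CPM in DIK scrotum. WT had 3.84, 0.365 and 0.427 CPM in nose, 0, 0.174 and 0.262 CPM in mouth, and 0.42, 68.1 and 0.251 CPM in scrotum. WT scrotum replicate 2 exceeded all DIK mouth and DIK scrotum libraries and lay below all DIK nose libraries. The log2 difference was 7.45 ± 1.72 (edgeR adjusted p = 0.00371) at nose and 7.60 ± 1.80 (edgeR adjusted p = 0.00364) at mouth, with a pooled ratio of 252 (95% counting interval 69.3 to 2091) against 2 WT counts at mouth. At scrotum it was -0.76 ± 1.12 with all libraries and 5.32 ± 0.72 (edgeR adjusted p = 4.23e-06) without WT scrotum replicate 2.

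ALOXE3 acts on the product of ALOX12B, turning the hydroperoxide into an epoxy alcohol, and the 2 genes are neighbours in the RefSeq annotation of the pig. It was 40.1, 30.4 and 60.3 CPM in DIK nose, 6.33, 14.8 and 8.53 CPM in DIK mouth and 8.10, 8.22 and 10 CPM in DIK scrotum. WT had 1.92, 0.365 and 0 CPM in nose, 0.644, 0 and 0 CPM in mouth, and 0.42, 48.3 and 0 CPM in scrotum. WT scrotum replicate 2 lay above 8 of the 9 tumour libraries. The log2 difference was 7.18 ± 1.93 (edgeR adjusted p = 0.00915) at nose, with a pooled ratio of 172 (95% counting interval 47.5 to 1427) against 2 WT counts. At mouth it was 5.14 ± 1.70 (edgeR adjusted p = 0.024). Both calls depended on single libraries: the adjusted p was 0.0641 at nose without WT nose replicate 3. At mouth it was 0.0639 without DIK mouth replicate 2, 0.0812 without WT mouth replicate 2 and 0.0692 without WT mouth replicate 3. Without WT mouth replicate 1, which held all WT mouth counts, the estimate was 8.11. That value is against 0 WT counts and depends on the prior count. At scrotum the difference was -0.96 ± 1.15 with all libraries and 5.48 ± 1.0 (edgeR adjusted p = 0.000139) without WT scrotum replicate 2.

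AADACL2 is a predicted serine hydrolase whose substrate in skin is little defined. It was the least abundant of the 8, at 10.9, 4.04 and 7.92 CPM in DIK nose, 0.316, 0.729 and 0.533 CPM in DIK mouth and 3.07, 1.07 and 2.50 CPM in DIK scrotum. WT had 0, 0.365 and 0 CPM in nose, 0 in all of mouth, and 0, 3.67 and 0 CPM in scrotum. DIK mouth held 6 counts in all, so its level there was close to the floor. The log2 difference at nose was 5.56 ± 1.32 (edgeR adjusted p = 0.00307), and the pooled ratio against 1 WT count was 61.5 (95% counting interval 10.8 to 2455). At mouth DIK was at least 2.86-fold higher and was not called by edgeR (adjusted p = 0.0782), while DESeq2 (adjusted p = 0.0353) and limma-voom (adjusted p = 0.0137) called it. At scrotum the difference was 0.63 ± 0.93 with all libraries, and DIK was at least 4.79-fold higher without WT scrotum replicate 2 (edgeR adjusted p = 0.00311).

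Among the tumours, most of the 8 genes were highest in nose. All DIK mouth libraries lay below all DIK nose libraries for 5 of 8 genes (ALOX12B, ALOXE3, CERS3, ELOVL4 and AADACL2), against 11.6% of tested genes. All DIK scrotum libraries lay below DIK nose for 7 of 8, every gene except ABCA12, against 15.9% of tested genes. DIK scrotum lay below DIK mouth for 6 of 8, against 13.9%, and above it for AADACL2 alone, against 12.7%. None of these differences was called by edgeR in the fit over all 18 libraries, in which 1.16% of tested genes were called lower in mouth than nose, 2.68% lower in scrotum than nose and 1.05% lower in scrotum than mouth. The numbers with an unadjusted p under 0.05 were 1, 3 and 1 of 8 for these pairs. DESeq2 called 1, 0 and 0, limma-voom 3, 7 and 3, and edgeR fitted to the compared groups alone 3, 7 and 3. The shares of all tested genes at these cuts and tools are not given here, and those of the main fit do not apply to them. Over the alternatives run, genes called lower reached 558, 1144 and 617 for these pairs, from 150, 346 and 136 in the main fit. The values nearest to a call were -3.74 ± 0.95 on the log2 scale for AADACL2 in mouth minus nose (edgeR adjusted p = 0.0597), and for scrotum minus nose -1.72 ± 0.62 for UGCG (edgeR adjusted p = 0.125) and -3.16 ± 1.17 for ALOX12B (edgeR adjusted p = 0.141). These pairs share libraries. The cornified layer markers are genes of keratinocytes on the way to becoming the dead, flattened outer cells, and do not measure the dead layer itself. They summed to 50855 to 70841 CPM in DIK nose, 36284 to 45412 CPM in DIK mouth and 7448 to 9140 CPM in DIK scrotum. KRT1 and KRT10 made up much of the nose and mouth sums. In nose, mouth and scrotum tumours their means were 25897, 14894 and 244 CPM and 19441, 10104 and 859 CPM. Not every marker followed the order of the sums. LOR had means of 1211, 302 and 545 CPM, and IVL of 6837, 7723 and 3518 CPM. The part of the cornified markers in the order of the tumour sites was not tested.

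**Figure D3:**
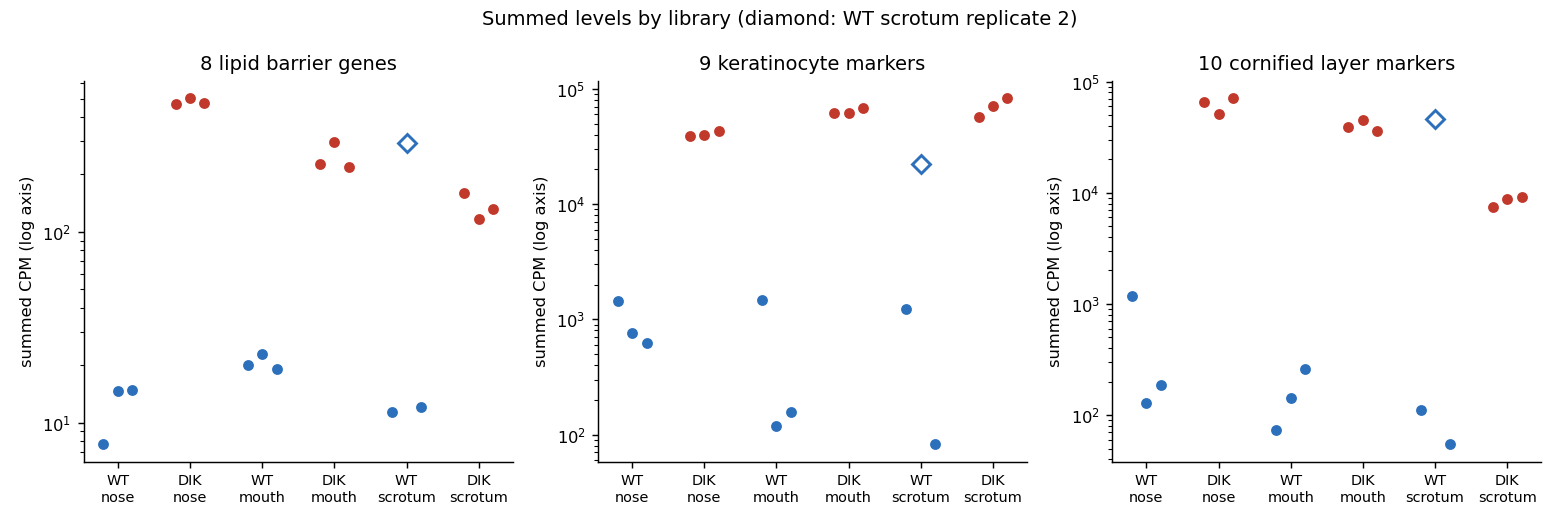
Summed CPM of the 8 genes, of the keratinocyte markers and of the cornified layer markers in each library, on log axes. DIK scrotum has the lowest tumour values for the 8 genes and for the cornified markers but not for the keratinocyte markers, and WT scrotum replicate 2 has the highest WT value in each.

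The level of each gene was also set against the mean log2 CPM of the 9 keratinocyte markers in the same library. The median over the 8 genes of this relative log2 level was -4.07, -4.18 and -3.91 in DIK nose, -5.47, -5.27 and -5.43 in DIK mouth and -5.88, -6.72 and -6.40 in DIK scrotum. It was -3.67 in WT scrotum replicate 2, above all 9 tumour libraries. The marker mean subtracted was 8.47 in that library and 9.46 to 10.21 in the tumour libraries. This lower reference raises the relative level of every gene in that library. The share of all tested genes above the tumours by this measure was not counted. By this measure WT scrotum replicate 2 lay above all 9 tumour libraries for ALOXE3, ELOVL4 and PNPLA1, above 8 for ALOX12B and UGCG, above 7 for ABCA12 and AADACL2 and above 6 for CERS3. By CPM alone it lay above 6 tumour libraries for ALOX12B, 8 for ALOXE3, 2 for ABCA12, 0 for CERS3, 5 for ELOVL4, 3 for UGCG, 4 for PNPLA1 and 6 for AADACL2. This is 1 library, its high level was known when the 8 genes were chosen, and its values are a description with no test. The median difference between tumour sites was -1.04 for mouth minus nose, -2.14 for scrotum minus nose and -0.88 for scrotum minus mouth on the relative log2 scale. For single genes the difference of scrotum minus nose ran from -3.70 for ALOX12B to -1.38 for CERS3. Each of the 8 had an exact two-sided permutation p of 0.1, the smallest that 3 libraries against 3 allow. The share of all tested genes that reach this p was not counted. The marker mean was 9.46 to 9.87 in DIK nose and 10.04 to 10.21 in DIK scrotum, so this measure lowers every gene in scrotum against nose. PNPLA1 differed by -0.07 (exact permutation p = 0.8) in mouth minus nose and ALOXE3 by -0.23 (exact permutation p = 0.8) in scrotum minus mouth. Against WT the relative differences were 0.32, -2.42 and -3.31 at nose, mouth and scrotum, and -2.96 at scrotum without WT scrotum replicate 2, but outside WT scrotum replicate 2 the WT values of these genes other than UGCG rest on few counts per library and are set largely by the prior count of 2.

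**Figure D4:**
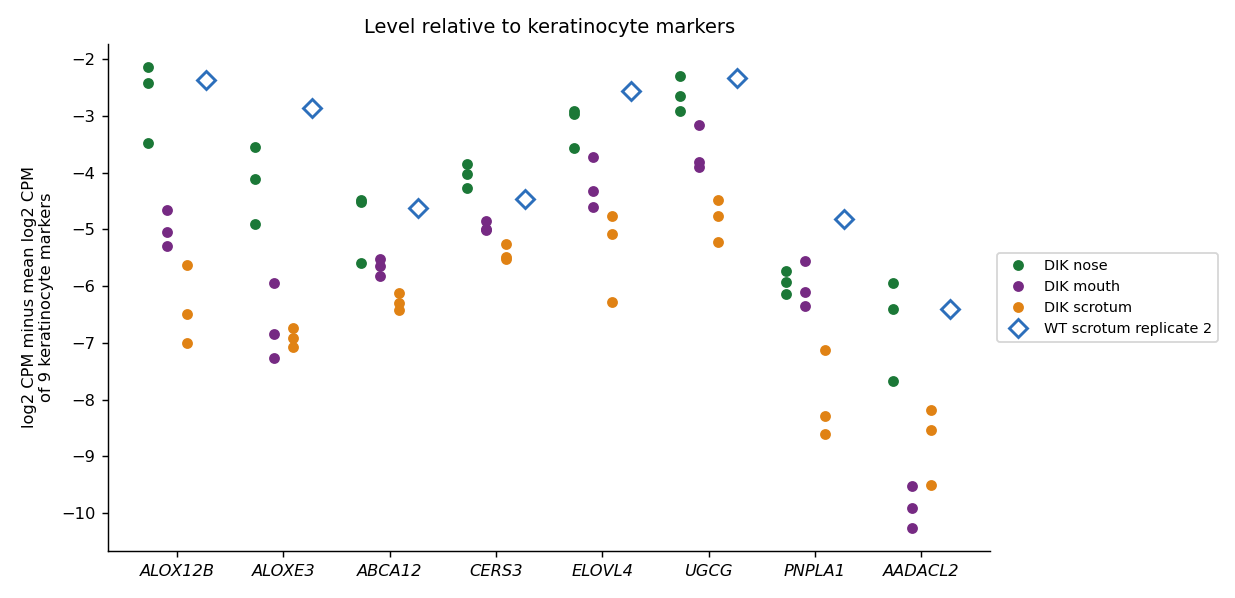
Log2 level of each gene relative to the mean of 9 keratinocyte markers, per library, for the 9 tumour libraries and WT scrotum replicate 2. DIK scrotum values lie lowest for most genes, and WT scrotum replicate 2 lies at or above the DIK nose values for several.

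Sebaceous gland cells also make and release lipids. Of 9 sebaceous markers measured, AWAT1, an acyltransferase of wax ester synthesis, had 0 counts in all 18 libraries, and AWAT2, of the same function, had 0 counts in all 9 tumour libraries. These 2 genes are named outside the naming rule given below. Of 4 tested markers, 2 were called higher and 0 lower at nose, 2 and 1 at mouth, and 1 and 1 at scrotum. The shares of tested genes were 21.9%, 22.7% and 19.4% called higher and 20.1%, 24.3% and 24.0% called lower. Without WT scrotum replicate 2, 1 of 5 was called higher and 1 lower, MGST1 at -4.84 on the log2 scale. The summed markers were 73.8 to 127.5 CPM in DIK nose and 17.3 to 20.1 CPM in WT nose. Most of the DIK nose sum was in CIDEA (mean 59.1 CPM) and ACSBG1 (mean 37.3 CPM), and the cells that made them were not tested. The other labels had overlapping sums, at 53.3 to 76.5 CPM in DIK mouth and 42.5 to 294.7 CPM in WT mouth, and at 22.9 to 50.3 CPM in DIK scrotum and 41.1 to 82.1 CPM (the highest in replicate 2) in WT scrotum.

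The other genes of the pathway were read against the shares of all tested genes. Called higher were 21.9% at nose, 22.7% at mouth, 19.4% at scrotum and 24.0% at scrotum without WT scrotum replicate 2. Called lower were 20.1%, 24.3%, 24.0% and 25.2%. A count near these shares is no result about its list, as for the ceramide synthesis genes at scrotum with all libraries. Upstream of the 8 genes, ceramide synthesis begins with serine palmitoyltransferase. Of 12 tested genes of ceramide synthesis, 5 rose and 1 fell at nose, 5 rose and 1 fell at mouth, and 3 rose and 3 fell at scrotum; without WT scrotum replicate 2, 5 of 13 rose and 0 fell. The catalytic subunits SPTLC1 and SPTLC2 rose at all 3 labels, by 0.90, 1.41 and 1.29 and by 1.48, 1.05 and 3.82 on the log2 scale at nose, mouth and scrotum, and by 1.46 and 3.55 at scrotum without WT scrotum replicate 2. SPTLC3, an alternative subunit, rose by 4.31 at nose and 5.91 at mouth, and its difference at scrotum was -0.65 with all libraries and 3.03, called higher, without WT scrotum replicate 2. SPTSSB, a small activating subunit, rose by 5.76 at nose and 8.57 at mouth and fell by 5.44 at scrotum, where without that library its difference was -1.56 and not called. The median log2 difference of this list was 0.93, 1.14 and -0.08 at the 3 labels and 0.81 at scrotum without that library, against 0.03, -0.04, -0.09 and -0.01 for all tested genes.

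Of 11 tested genes of fatty acid elongation and activation, 5 rose and 1 fell at nose and at mouth, and 2 rose and 1 fell at scrotum. Without WT scrotum replicate 2, 4 rose and 1 fell. ELOVL1, an elongase that acts before ELOVL4, rose by 2.85, 2.90 and 3.17 at the 3 labels and by 4.01 at scrotum without WT scrotum replicate 2. SLC27A4, a fatty acid transport protein with acyl-CoA synthetase activity, rose by 2.64, 2.88 and 1.32, and by 2.30 without that library. ELOVL7 rose by 3.77 at nose and 3.50 at mouth and differed by 1.41, not called, at scrotum, where without that library it rose by 3.31. ACSL1, a long-chain acyl-CoA synthetase abundant in muscle, fat and liver, fell by 2.91 at nose, by 3.50 at scrotum and by 3.86 there without that library, and differed by -0.51, not called, at mouth. The median of this list was 1.13, 0.87 and 0.98, and 0.79 at scrotum without that library.

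Of the 8 tested genes that act beside PNPLA1 and the lipoxygenases on acylceramide and the cornified envelope, 7 rose at nose and 7 at mouth, 2 rose at scrotum, 7 rose at scrotum without WT scrotum replicate 2, and none fell. ABHD5, the cofactor of PNPLA1, rose by 3.30 at nose and 2.71 at mouth and differed by -0.16 at scrotum, or by 0.92 (called higher) without that library. The transglutaminases TGM1 and TGM5, which cross-link the envelope, rose by 6.94 and 6.44 at nose and by 6.25 and 6.86 at mouth. At scrotum TGM1 rose by 3.95, and by 7.39 without WT scrotum replicate 2, while TGM5 differed by -0.54 with all libraries and by 3.11, called higher, without it. SULT2B1, which makes cholesterol sulfate, rose by 5.57, 9.24 and 4.38, and by 7.12 at scrotum without that library. The median of this list was 6.0, 4.35 and -0.10, and 2.59 at scrotum without that library.

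Of 10 tested genes of glucosylceramide and sphingomyelin processing, 7 rose and 1 fell at nose, 6 rose and 1 fell at mouth, 2 rose and 2 fell at scrotum, and 2 rose and 0 fell there without WT scrotum replicate 2. The counts at scrotum with all libraries were near the shares of all tested genes (19.4% higher and 24.0% lower). UGT8, which attaches galactose rather than glucose to ceramide, rose by 4.95, 5.39 and 2.20, and by 3.68 at scrotum without that library. The sphingomyelinase SMPD3 rose by 5.16 at nose and 4.97 at mouth and differed by -0.51 at scrotum, or by 3.45 (called higher) without that library. SGMS2, a sphingomyelin synthase, fell by 1.08 at nose and 1.37 at mouth and rose by 0.76 at scrotum, where without that library the difference was 0.71 and not called. PLA2G2F, a secreted phospholipase of the epidermis, rose at nose, where WT had 0 counts, and at mouth, by 8.96. It fell by 4.08 at scrotum, where without WT scrotum replicate 2 the difference was 0.35 and not called. Medians were 0.94, 1.03 and -0.09, and 0.31 at scrotum without that library.

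Of 3 other tested lipoxygenase genes, ALOX12, the platelet-type enzyme that is also expressed in epidermis, rose by 3.68, 3.56 and 2.08, and by 4.68 at scrotum without WT scrotum replicate 2. ALOX5AP, a partner of the leukocyte lipoxygenase, fell by 2.03 at mouth and differed, not called, by 0.50 at nose, -0.23 at scrotum and -0.59 at scrotum without that library. The 5 other tested transporter genes were ABCA1, ABCA2, ABCA3, ABCA7 and ABCG1. Of these 5, 3 rose at nose, 1 rose and 1 fell at mouth and 1 rose at scrotum, with and without WT scrotum replicate 2. The counts at mouth were near the shares of all tested genes (22.7% higher and 24.3% lower). So were the higher counts at scrotum (19.4% with and 24.0% without that library). ABCA7 rose by 1.65, 1.52 and 1.23, and by 1.43 at scrotum without that library. ABCA3, the surfactant lipid transporter of lung, rose by 1.64 at nose and fell by 1.91 at mouth, and differed, not called, by 0.61 at scrotum and 0.73 there without that library.

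Of 9 tested transcription factors of the epidermal barrier, 8 rose at nose and 7 at mouth, 3 rose and 1 fell at scrotum, and 7 rose and 1 fell there without WT scrotum replicate 2. TP63, the master regulator of stratified epithelium, rose by 3.53 at nose and 6.46 at mouth and differed by 1.42 (not called) at scrotum, or by 2.73 (called higher) without WT scrotum replicate 2. KLF4, needed for barrier formation, rose by 5.61 and 4.40 and differed by 1.39, not called, at scrotum, or by 3.38 (called higher) without that library. PPARD, a lipid-sensing nuclear receptor, rose by 2.50, 2.66 and 2.47, and by 3.03 at scrotum without that library. RORA rose by 1.94 at nose, differed by 0.13 at mouth and fell by 2.82 at scrotum and by 1.79 without WT scrotum replicate 2. Of 9 keratinocyte markers, 7 rose at nose, 9 at mouth, 5 at scrotum and 9 at scrotum without that library. Of 10 cornified markers, 10 rose at nose and 10 at mouth; at scrotum 1 rose and 2 fell, and without that library 8 rose and 0 fell. Of the 2, both named after this count, the desmosomal cadherin DSC1 fell by 5.96 and the protease KLK5 fell by 4.78. Without WT scrotum replicate 2 neither was called, at -1.56 for DSC1 and 1.68 for KLK5, a change of sign. All 4 markers of mucosal epithelium measured rose at all 3 labels, with and without that library.

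Of all tested genes, 3.16% were called higher and 2.68% lower in scrotum than nose tumours. The shares were 1.83% and 1.05% for scrotum minus mouth, and 0.380% and 1.16% for mouth minus nose. Of 12 ceramide synthesis genes, 1 was called higher and 1 lower in scrotum than nose, 2 lower in scrotum than mouth and 1 higher in mouth than nose. Of 10 genes of glucosylceramide and sphingomyelin processing, 1 was called higher in scrotum than nose and 2 lower in scrotum than mouth. The fatty acid, other lipoxygenase and transporter lists had no call. SPTSSB was lower in DIK scrotum than in DIK nose, by 6.15 on the log2 scale (edgeR adjusted p = 0.0355), and than in DIK mouth, by 6.52 (edgeR adjusted p = 0.0377). LIPM, an epidermal lipase, was lower in scrotum than nose, with a log2 difference of -4.84 (edgeR adjusted p = 0.0273). PLA2G2F was lower in scrotum than mouth, at -6.20 (edgeR adjusted p = 0.047), as was the ceramidase ASAH1, at -1.45 (edgeR adjusted p = 0.0146). CERS6, a ceramide synthase for shorter fatty acids, was lower in scrotum than mouth, at -4.44 (edgeR adjusted p = 0.0114), and higher in mouth than nose, at 2.91 (edgeR adjusted p = 0.05 after rounding, called). CERS2, a widely expressed ceramide synthase, and SGMS2 were higher in scrotum than nose, at 1.38 (edgeR adjusted p = 0.0392) and 1.25 (edgeR adjusted p = 0.0215). RORA was lower than in nose both in mouth, at -1.86 (edgeR adjusted p = 0.0266), and in scrotum, at -3.36 (edgeR adjusted p = 0.000308). LIPM, ASAH1, CERS6 and CERS2 were named after their values were seen.

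The profiles of the 8 genes over the 18 libraries were compared with each other by the root mean square difference of their centred log2 CPM, in which a smaller value means a closer pattern. ABCA12 and CERS3 were the closest pair at 0.54, followed by CERS3 and ELOVL4 at 0.70 and ABCA12 and ELOVL4 at 0.76. The neighbouring genes ALOX12B and ALOXE3 were at 0.77. AADACL2 and ELOVL4 were the farthest apart at 1.95, and UGCG lay at 1.06 to 1.87 from the others. Among 8115 named genes of at least 10 CPM in a group (8116 for AADACL2), the closest to ABCA12 were TIAM1 at 0.38, DYNLL1 at 0.42 and PTPRZ1 at 0.50. The closest to CERS3 were JUP, the desmosomal plakoglobin, at 0.43, REEP4 at 0.53 and TIAM1 at 0.53. For ELOVL4 they were CERS3 at 0.70, CTNNBIP1 at 0.71 and the kallikrein KLK11 at 0.74. For ALOX12B they were the phospholipase PLA2G4F at 0.61, AOX4 at 0.63 and SDR16C5 at 0.66, and for ALOXE3 TPRG1 at 0.71, HOPX at 0.73 and IL20RB at 0.73. For UGCG they were FBXO8 at 0.54, SLC7A1 at 0.54 and TRIM21 at 0.55. For PNPLA1 they were ADGRF4 at 0.67, HSPA4L at 0.70 and WNT3 at 0.72, and for AADACL2 QPCT at 0.63, BTG2 at 0.67 and GPRIN2 at 0.68. These distances share the same libraries and depths, and the distances are a description. Outside WT scrotum replicate 2 the WT values of 7 of the 8 genes lie near the floor.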

How the data were processed

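Messenger RNA was measured in 18 libraries (3 in each of 6 groups), made with a VAHTS mRNA-seq kit per the labels' protocols. Tools named in the submitters' processing notes are fastp, HISAT2 2.1.0 and HTSeq 0.11.2. The sources used here do not name a genome build, annotation or strand setting, so coordinates are left out and antisense reads may be included in a gene's value. Values as deposited by the authors are whole, unnormalized read counts by gene; every column was assigned by its name (0 left out). Of 27339 symbols, 26838 matched RefSeq (Sscrofa11.1), used for names and neighbours only. ABCA12 overlaps 1 pseudogene there.

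Counts were scaled by TMM and tested with the robust quasi-likelihood test of edgeR 4.0.16 in R 4.3.3, with 6 group means. The filter (minimum count 10, total 15) kept 12895 genes and at least 99.1% of each library. The common coefficient of variation between libraries of a group, by edgeR, was 36.1%, and this spread may be technical. Benjamini-Hochberg adjustment ran over all tested genes, with calls under 0.05. Each SE was derived from the log2 difference and its F statistic, and 2 was the prior count of log values. Against 0 counts a fold is a bound from 3 counts over the group; against 1 to 3 counts it is a pooled ratio with an exact 95% interval. Relative levels were compared by exact two-sided permutation.

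The 8 genes, the pathway and marker lists and the tests were chosen with earlier results of these data known. Up to 4 genes per list were named by smallest adjusted p in any DIK-WT contrast, and for each of the 8 genes the 3 closest profiles. The fit was tested on simulated data with known changes. Alternatives were DESeq2 1.42.0, limma 3.58.1 (voom with quality weights), other scalings, no filter, only the groups compared, a replicate block, prior counts, KRT5 alone as reference, and leaving out each library. No 2 libraries were identical (0 pairs).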

Additional observations from a re-analysis of the deposited data

Results flagged for a closer look

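The DIK-WT difference differed between labels for several of the 8 genes by edgeR's test of the difference itself (quasi-likelihood, Benjamini-Hochberg adjustment over all tested genes, 3 libraries in each of the 4 groups). The DIK-WT log2 difference at scrotum minus that at nose was -8.21 ± 2.08 for ALOX12B (edgeR adjusted p = 0.0316), -8.14 ± 2.31 for ALOXE3 (edgeR adjusted p = 0.0481), -7.36 ± 1.99 for ELOVL4 (edgeR adjusted p = 0.0407) and -3.25 ± 0.91 for UGCG (edgeR adjusted p = 0.0414). These are 4 of 8 genes, against 4.46% of tested genes called lower. For scrotum minus mouth it was -8.37 ± 2.17 for ALOX12B (edgeR adjusted p = 0.0219), -6.13 ± 1.70 for ELOVL4 (edgeR adjusted p = 0.0297) and -6.40 ± 1.6 for PNPLA1 (edgeR adjusted p = 0.016), or 3 of 8 against 8.10%. Between mouth and nose edgeR called 0 of 8, with 0 at an unadjusted p under 0.05, DESeq2 called 0 and limma-voom 1.

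Without WT scrotum replicate 2 none of the 8 genes was called in either contrast. The scrotum minus nose values were then -2.17 for ALOX12B, -1.72 for ALOXE3, -2.94 for ELOVL4 and -1.54 for UGCG, and scrotum minus mouth values were -2.29 for ALOX12B, -1.72 for ELOVL4 and -3.21 for PNPLA1. Other single libraries also moved the counts. For scrotum minus nose, 0 to 1 genes were called without any 1 of the DIK nose, WT nose or DIK scrotum libraries, and 8 without WT scrotum replicate 3. For scrotum minus mouth, 1 was called without DIK scrotum replicate 2 or any 1 of the WT mouth libraries, and 6 without WT scrotum replicate 1 or replicate 3. The number of all genes called lower also moved when 1 library was left out. It ran from 226 to 831 for scrotum minus nose (575 in the main fit) and from 695 to 1261 for scrotum minus mouth (1044). The shares for each library left out are not given here. In WT scrotum replicate 2 the 9 keratinocyte markers summed to 22270 CPM and the 10 cornified layer markers to 46545 CPM. The 2 contrasts share the scrotum libraries and are not independent of each other.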

How the results depend on the processing

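At the nose and mouth labels, 223 alternatives over 16 single-gene results gave 0 reversals; 7 lost a call and 3 gained one. Without a filter on low counts PNPLA1 at nose had an adjusted p of 0.0517 and ALOXE3 at mouth 0.0507. Leaving out 1 library in turn gave 6 to 8 of 8 genes called at nose, 6 to 7 at mouth and 0 to 8 at scrotum. Few counts limit AADACL2 in DIK mouth and, outside WT scrotum replicate 2, the WT levels of all but UGCG. WT nose replicate 1 has a floor of 5.76 CPM.

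At the scrotum label limma-voom called 7 genes, the replicate block 1, and 8 were called both without WT scrotum replicate 2 and without both that library and WT nose replicate 1, an alternative chosen after seeing the data. ALOX12B, ALOXE3 and PNPLA1 then changed sign. ALOX12B was 4.09 with limma-voom, 5.30 without both libraries and -1.34 to 5.32 leaving out 1 library in turn. ALOXE3 was 4.12, 5.48 and -1.55 to 5.48, and PNPLA1 2.44, 2.89 and -0.88 to 2.90, with 0.15 under the replicate block. Leaving out 1 library in turn gave -0.16 to 4.82 for ELOVL4 and -0.04 to 2.08 for UGCG; in all 5 genes the highest value was that without WT scrotum replicate 2.

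Genes called lower in DIK mouth than DIK nose numbered 1 with DESeq2 and with no filter, 3 with limma-voom, with only the groups compared and without both libraries, and 0 to 1 leaving out 1 library. For scrotum minus mouth they numbered 3, 3 and 2 with limma-voom, only the groups compared and without both, and for scrotum minus nose 7, 7 and 4. ALOXE3 in scrotum minus mouth was -0.44 to 0.22 leaving out 1 library. The difference between labels was called for 1 gene with limma-voom in mouth minus nose. In scrotum minus mouth it was called for 0 (limma-voom), 1 (only the groups compared), 1 (replicate block) and 0 (without both), and for 0 to 6 leaving out 1 library. In scrotum minus nose it was called for 1 (library size scaling), 0 (limma-voom), 0 (no filter), 0 (only the groups compared), 1 (replicate block) and 0 (without both), and for 0 to 8 leaving out 1 library.

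The sign of the difference between labels turned for some genes, in no case with a call. Values are given without both libraries and then as the range leaving out 1 library. Scrotum minus mouth was 1.98 and -4.01 to 1.97 for AADACL2 (0.58 with limma-voom), 0.36 and -9.07 to 0.34 for ALOXE3, and 2.42 and -7.67 to 2.34 for CERS3 (0.08 with limma-voom). Scrotum minus nose was 0.63 and -7.19 to 0.45 for AADACL2 and 1.45 and -8.26 to 1.28 for CERS3. In these 5 the highest value was that without WT scrotum replicate 2. CERS3 and AADACL2 then had 0 counts in WT scrotum, so their values there depend on the prior count. Mouth minus nose was 0.68 for ABCA12 with limma-voom. For ALOX12B it was -0.52 and -0.54 to 0.73, with -0.04 under library size scaling and -0.25 with limma-voom. Leaving out 1 library it was -2.85 to 0.97 for ALOXE3, -3.24 to 1.6 for CERS3 and -2.38 to 3.32 for PNPLA1. The cause was not tested.

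The median level relative to keratinocyte markers was 1.35 at nose with a prior count of 0.5. With KRT5 alone as reference it was -4.25 at scrotum, -1.58 for DIK mouth minus nose and -2.73 for DIK scrotum minus nose. DIK mouth minus nose ran from -1.28 to -0.90 leaving out 1 library. Counts of all genes called between DIK and WT stayed within 1.5 times of the main count in the 14 alternatives run. Between tumour sites they ran from 4 to 495 higher and 38 to 558 lower (mouth minus nose), 109 to 1330 and 107 to 1144 (scrotum minus nose), and 109 to 727 and 36 to 617 (scrotum minus mouth), from 49, 150, 407, 346, 236 and 136. Between labels they ran from 314 to 1756 higher and 341 to 1581 lower (mouth minus nose), 204 to 951 and 226 to 950 (scrotum minus nose) and 423 to 1080 and 695 to 1457 (scrotum minus mouth). With library size scaling the share of higher among called genes was 36.1% at mouth and 37.5% at scrotum (48.2% and 44.7% with TMM), and the median of all genes moved to -0.29 and -0.21. For the tumour pairs it was 35.4%, 34.8% and 34.6% against 24.6%, 54.1% and 63.4%. Single genes of the other lists were not refitted under other scalings.

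Same-numbered DIK and WT libraries did not deviate together (correlations -0.05 to 0.09 over 9 pairs), so replicate numbers were not taken as pairs. With the replicate block 8 genes were called at nose, 7 at mouth and 1 at scrotum (CERS3, 2.63, edgeR adjusted p = 0.0344).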
